A study of Mus musculus with 7 samples.

Results

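The translation initiation and elongation factors of the mouse incisor's labial cervical loop were taken from the array as every probe whose gene symbol starts with Eif or Eef followed by a factor number from 1 to 6. The rule gave 97 of 25697 probes, under 62 of the gene symbols. RefSeq lists 50 of these symbols as current and the other 12 as older names, so that the probes stand for 59 genes. The rule used no measured value. It also takes in symbols of genes that are not themselves initiation or elongation factors. The kinase genes Eif2ak1, Eif2ak2, Eif2ak4 and Eef2k and the inhibitor genes Eif4ebp1 to Eif4ebp3 are such symbols. So are Eif4enif1, Eif4a3 and Eef1e1, and the probes of all these are counted here as factor probes. Eif2c1 to Eif2c4 are older names of the Argonaute genes Ago1 to Ago4, whose proteins carry small guide RNAs in gene silencing. These Argonaute symbols are counted too and given last.

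The labial cervical loop is the epithelial pocket that houses the stem cells of the growing enamel organ. Mutant mice had the genotype K14CreER;Yap/Taz f/f, in which a keratin 14 promoter drives a tamoxifen-activated Cre in epithelium, and control mice were Yap/Taz f/f without the Cre. At 8 weeks of age every mouse, mutant or control, had tamoxifen injected on 2 days in a row at 5 mg each time, and the tissue was collected 48 hours after the second injection. RNA of 4 mutant and 3 control samples was hybridised to 1 Illumina array each, with 2 mutant and 2 control arrays on the first chip and 2 mutant and 1 control arrays on the second. The Cre and the loss of the floxed genes cannot be told apart. The labels do not say whether the samples came from separate animals, so the p-values rest on a spread that may be technical.

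Translation starts when eIF2, bound to GTP and the initiator tRNA, joins the small ribosomal subunit together with eIF1, eIF1A, eIF3 and eIF5. The mRNA is brought in by eIF4F, made of the cap-binding protein eIF4E, the scaffold eIF4G and the helicase eIF4A. The kinase complex mTORC1 phosphorylates the 4E-BPs, small proteins that otherwise hold eIF4E away from eIF4G. It also favours translation of mRNAs that begin with a C and a run of pyrimidines, the 5′ terminal oligopyrimidine tract that many ribosomal protein and elongation factor mRNAs carry. These controls act on proteins and on ribosome loading, which an array of RNA levels does not measure.

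Because such a tract is part of the link to mTORC1, the annotated starts of the factor genes were read from the RefSeq promoter table of GRCm38.p6. The table held 61 start windows of 46 of the 59 genes. A run was counted where a C followed by at least 4 pyrimidines, read on the gene's own strand, began within 5 bases of the annotated start. It stood in 24.6% of the factor windows, against 18.3% of all 32851 windows in the table, and in 13 of the 46 genes. Each window printed here holds 10 bases before the start and 20 from it, with the run in capitals. The first 4 genes have runs of at least 10 bases, with the eIF2 gamma pair from the X and Y chromosomes first, and the elongation factor genes Eef2 and Eef1b2 stand for windows without a run there.
Eif2s3x, chrX:94212632-94212661, minus strand: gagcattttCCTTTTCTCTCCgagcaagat
Eif2s3y, chrY:1010585-1010614, plus strand: ggccacagccaCTTCCTTCTTTCgtgagca
Eif3f, chr7:108934405-108934434, plus strand: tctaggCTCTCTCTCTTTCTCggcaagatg
Eef1a1, chr9:78481705-78481734, minus strand: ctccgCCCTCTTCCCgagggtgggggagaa
Eef2, chr10:81176621-81176650, plus strand: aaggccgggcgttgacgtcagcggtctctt
Eef1b2, chr1:63176821-63176850, plus strand: ctgcagttccgccggaagtagccgaggcct

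A window without the run says only that these letters are not at the annotated start, which need not be the start used in this tissue. A run in capitals can begin before the annotated start, by 5 bases for Eef1a1 and 4 for Eif3f. Whether the mRNAs begin with these letters was not tested. Probes of genes with no window in the table were left out of this comparison. Over the tested probes of genes with a run, the median difference between mutant and control was 0.01 on the log2 scale (19 probes, 10 positive). Over those of genes without one it was 0.05 (51 probes, 34 positive).

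A probe counts as detected on an array where its detection p, the share of negative control probes that are brighter, is under 0.05. Each array detected 13767 to 14752 probes, 83 to 88 of them factor probes, at a median intensity of 80.8 to 86.2. Markers of epithelium passed the detection filter. The mean log2 intensity of Krt14 was 9.95 in mutant and 9.95 in control arrays, and that of Krt5 was 9.88 in mutant and 9.88 in control arrays. Cdh1 averaged 8.87 in mutant and 8.51 in control arrays (limma adjusted p = 0.375), and Trp63 averaged 8.68 in mutant and 8.87 in control arrays (limma adjusted p = 0.634). The targeted gene Yap1 measured 6.63, 6.36, 6.62 and 6.97 in mutant arrays and 7.30, 7.17 and 7.38 in control arrays, and fell by 0.67 on the log2 scale (limma adjusted p = 0.0445). Its difference stayed between -0.74 and -0.42 under 19 alternatives, of which 4 kept the limma adjusted p under 0.05 (0.00993 to 0.799), and leaving out any single array ended the call. Wwtr1, the gene of TAZ, differed by -0.15 (SE 0.14, limma adjusted p = 0.819). In such bulk tissue, fewer cells of a type and less RNA per cell cannot be told apart. Mutant replicate 4 stood apart from the other arrays in transcripts of the Y chromosome, as described below with Eif2s3y.

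The translation factors as a group showed no transcript that passed the test. Of the 97 factor probes, 79 were detected on all 7 arrays and 87 were detected on at least 3 arrays and tested, of 60 symbols. Limma called 0 of these 87 at an adjusted p under 0.05, against 0.0614% of all 14666 probes tested. At an unadjusted p under 0.05, 7 factor probes were higher in mutant arrays (8.05%, against 4.32% of all probes) and 1 was lower (1.15%, against 3.67%). The 7 include Eif5a2, which was detected on mutant arrays alone and so passed the filter through the group where it was high. In the authors' deposited table, 0 of 91 factor probes had a q-value under 0.05, against 0.0757% of all its probes, and 11 had a p-value under 0.05 (12.1%, against 10.9%).

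The differences were small. They ran from -0.33 to 0.41 on the log2 scale with a median of 0.04, beside a median of 0.00 over all probes, and 54 of the 87 were positive (62.1%, against 50.1% of all probes). The unadjusted 95% interval of a factor probe reached a median of 0.25 to either side. For 77 of the 87 it lay wholly within 0.5 of 0, a change of 1.41-fold (88.5%, against 90.5% of all probes). For probes near background, the processing compresses differences, so these intervals do not bound the change in RNA there. Averaged over the 87 probes, the level was 6.89, 6.87, 6.83 and 6.82 in mutant arrays and 6.80, 6.80 and 6.85 in control arrays. Control replicate 3 lay above mutant replicates 3 and 4, so the groups overlapped.

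**Figure D1:**
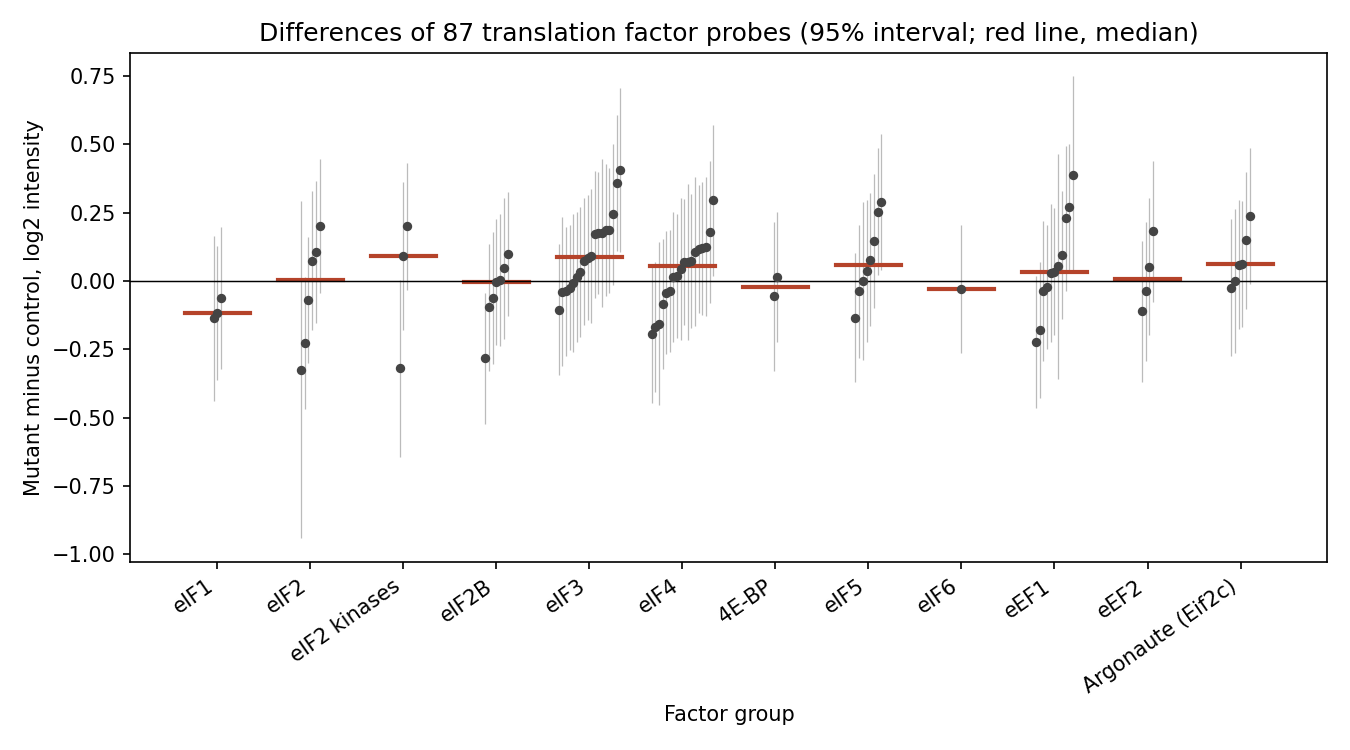
Difference between mutant and control arrays (log2 intensity) of each of the 87 tested factor probes, by factor group; points are probes, grey bars 95% intervals and red lines group medians. All points lie between -0.33 and 0.41, and the group medians lie between -0.12 for eIF1 and 0.09 for the eIF2 kinases and eIF3.

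The position of factor probes within chips differed. On the first chip 54 of 87 factor probes were higher in mutant arrays (62.1%, against 49.8% of all probes) with a median difference of 0.07. On the second chip 43 were (49.4%, against 50.3%) with a median of -0.01. In 48 of the 87 the sign was the same on both chips (55.2%, against 55.0% of all probes). Beside this, Cdh1 measured 9.18 and 9.34 in the mutant arrays of the first chip and 8.57 and 8.41 in those of the second, against 8.48 and 8.72, and 8.35, in the control arrays of the same chips. The mean of Krt14, Krt5, Cdh1 and Trp63 was 9.41 and 9.40 in the mutant arrays of the first chip and 9.26 and 9.31 in those of the second, against 9.29 and 9.33, and 9.29, in the control arrays. Cdh1 and this mean were highest in the mutant arrays of the first chip. Trp63 was lowest there, at 8.49 and 8.63 against 8.77 to 8.95 on the other arrays, and Krt14 measured 10.09 and 9.75. For the 5 epithelial markers with a probe, of 6 listed, the mean was 9.784 and 9.767 in the mutant arrays of the first chip. It was 9.685 and 9.683 in those of the second, and 9.629 to 9.680 in control arrays. For the ameloblast markers, the mean of the 5 with a probe, of which Klk4 and Mmp20 were not detected, was 6.07 and 5.75 in the mutant arrays of the first chip and 6.27 and 6.68 in those of the second, against 5.59 and 5.76, and 5.54, in the control arrays of the same chips. The part of these cell types in the chip difference was not tested.

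**Figure D2:**
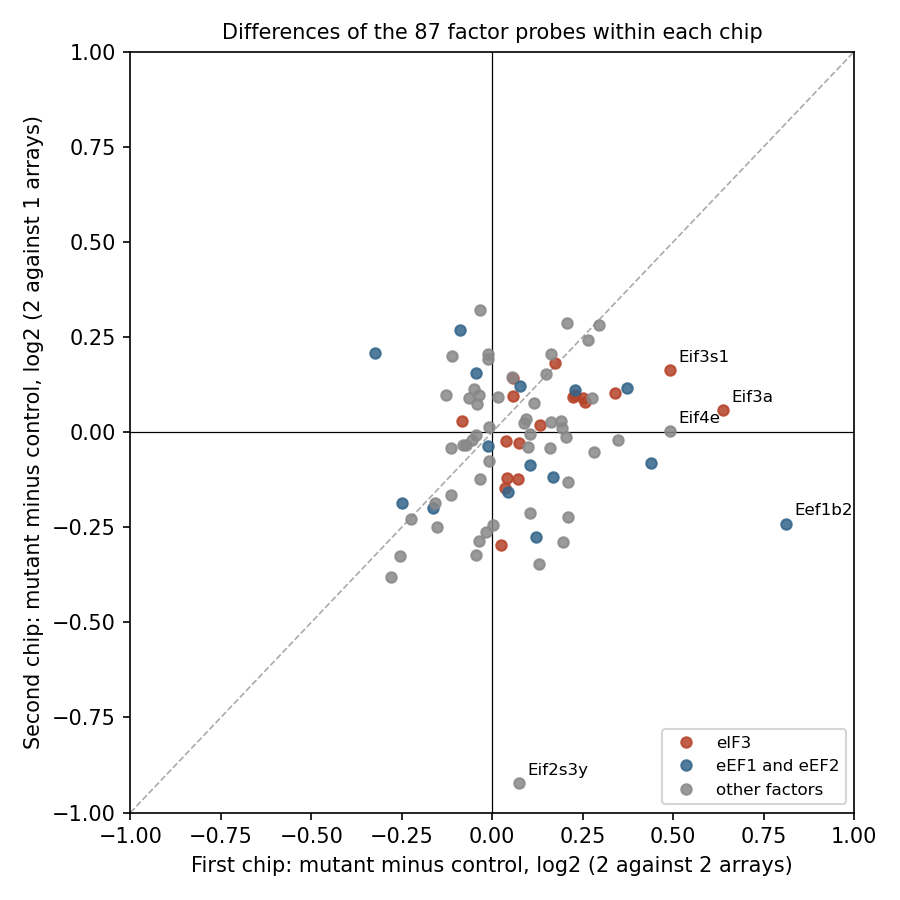
Difference between mutant and control arrays (log2 intensity) of the 87 factor probes on the first chip (horizontal) against the second chip (vertical); points are probes, with eIF3 in red, the elongation factors in blue and the others in grey, and the dashed line marks equal differences. The eIF3 probes lie mostly to the right of 0 on the first chip, and the Eif2s3y probe lies at 0.07 and -0.92.

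The ternary complex and scanning factors were examined first. Eif2s1 encodes the alpha subunit of eIF2, whose phosphorylation slows initiation across the cell, Eif2s2 the beta subunit, and Eif2s3x and Eif2s3y the gamma subunit from the X and Y chromosomes. Eif2s1 measured 4.36, 4.50, 4.66 and 4.49 in mutant arrays and 4.50, 4.43 and 4.70 in control arrays. These values overlap, and the difference was -0.07 (SE 0.11, limma adjusted p = 0.899). The only Eif2s1 probe lay near background, detected on 3 of 4 mutant and 3 of 3 control arrays, so its difference says little. The probes of Eif2s2 differed by 0.11 and 0.07. Eif2a, which encodes a protein that is not a subunit of eIF2 and can also deliver initiator tRNA, differed by 0.20 (SE 0.12, limma adjusted p = 0.685).

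Eif2s3x measured 6.20, 6.14, 6.27 and 6.63 in mutant arrays and 6.43, 6.36 and 6.68 in control arrays. Mutant replicates 1 to 3 lay below all controls and mutant replicate 4 did not. The difference of -0.23 (SE 0.12, limma adjusted p = 0.643) did not pass, and was -0.22 on the first and -0.23 on the second chip.

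Eif2s3y measured 5.92, 6.41, 6.10 and 4.14 in mutant arrays and 5.99, 6.19 and 6.04 in control arrays. In mutant replicate 4 it was not detected, with a share of 0.805 of the negative controls brighter, while the other 6 arrays detected it within 5.92 to 6.41. The difference over all arrays was -0.33 (SE 0.30, limma adjusted p = 0.818), and without mutant replicate 4 it was 0.07 (limma adjusted p = 0.926). Other Y-linked transcripts were also not detected in mutant replicate 4 alone. Ddx3y, a helicase gene that aids scanning of structured mRNAs, measured 4.19 there on the probe ILMN_1235995, against 4.99 to 5.52 on the other arrays. Jarid1d, now Kdm5d, a histone demethylase gene, measured 4.19 against 4.66 to 5.47, and Uty, another gene of that enzyme class, 4.27 against 4.78 to 5.03. The Ddx3y probe ILMN_2899607 was also not detected in mutant replicate 4, at 4.266 against 4.535 to 4.861. A further Ddx3y probe, ILMN_2899599, was detected on all 7 arrays, at 6.93 in mutant replicate 4 and 7.11 to 8.09 on the others.

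Xist, the RNA of the inactive X chromosome, was detected on all 7 arrays. The probe ILMN_3022688 measured 8.41, 8.14, 8.13 and 9.19 in mutant arrays and 8.46, 7.72 and 7.95 in control arrays, with mutant replicate 4 the highest. The labels give no sex. All these Y-linked probes and Xist were thus detected together on 6 arrays. In mutant replicate 4 only the Ddx3y probe ILMN_2899599 of the Y-linked probes was detected, and Xist was higher than on these arrays.

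**Figure D3:**
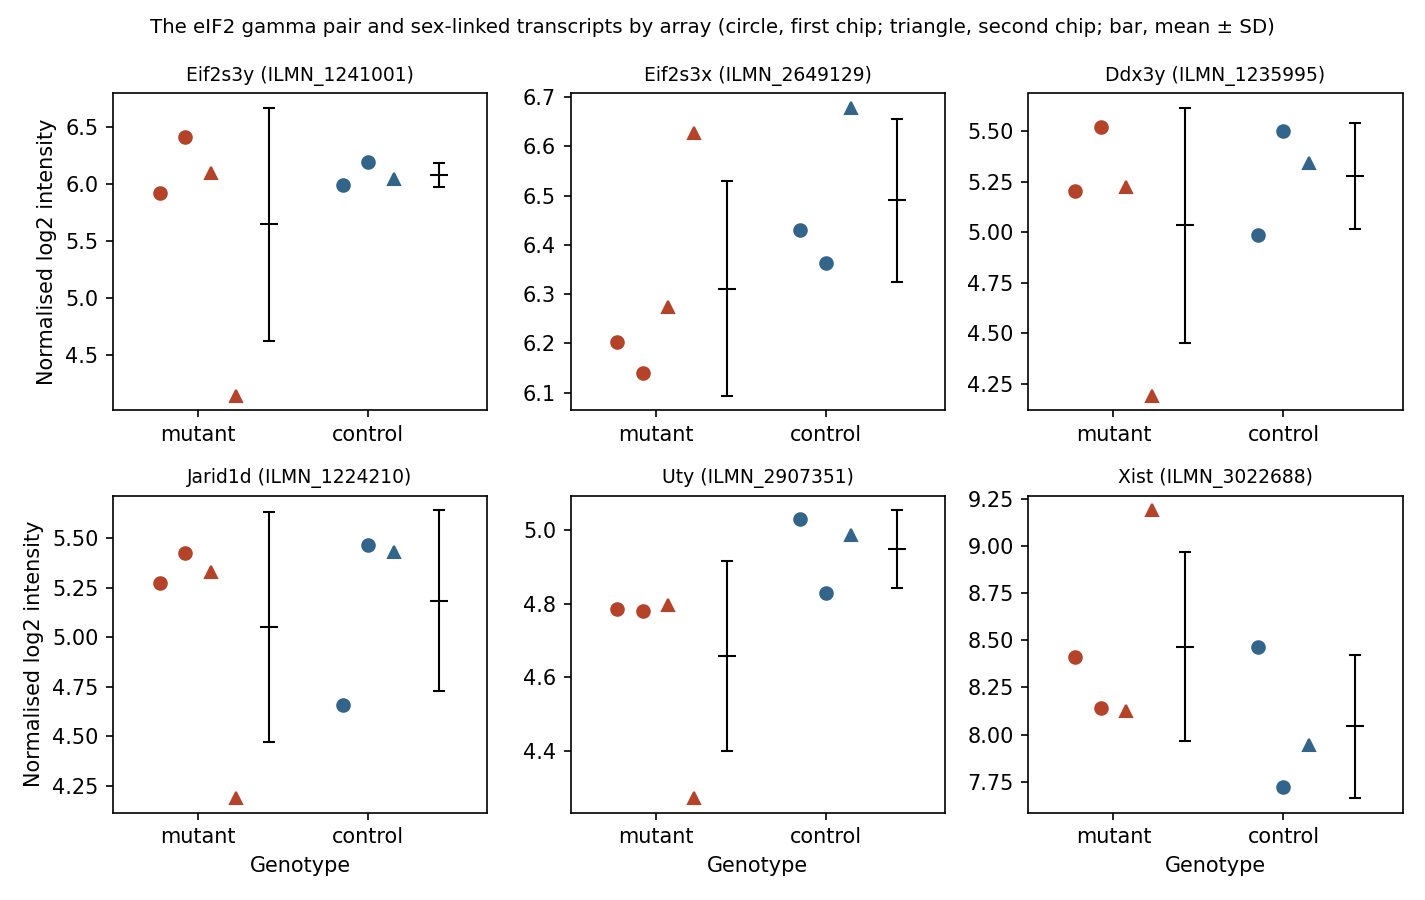
Normalised log2 intensity of the eIF2 gamma genes Eif2s3y and Eif2s3x, the Y-linked genes Ddx3y, Jarid1d and Uty, and Xist in mutant and control arrays; circles are arrays of the first chip, triangles of the second, and bars mean ± SD. Mutant replicate 4 is the low triangle of the 4 Y-linked panels and the high one for Xist.

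The eIF1 group holds scanning factors that open the small subunit's mRNA channel and guard start codon choice. Its 3 tested probes were lower in mutant arrays by values that did not pass: Eif1b at -0.14, Eif1a at -0.12 and Eif1ay at -0.06. Eif1ay is listed in RefSeq as an older name of the X-linked Eif1ax. It was detected in mutant replicate 4 as on all other arrays, at 4.79 beside 4.80 to 5.16.

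The eIF2 kinases phosphorylate eIF2 alpha under stress. Eif2ak1, the heme-regulated kinase, measured 5.71, 5.11, 5.40 and 5.49 in mutant arrays and 6.02, 5.36 and 5.83 in control arrays. The groups overlap through control replicate 2, and the difference was -0.32 (SE 0.15, limma adjusted p = 0.622), with -0.28 within the first chip and -0.38 within the second. Eif2ak2, the kinase PKR that binds double-stranded RNA, differed by 0.09 (SE 0.13, limma adjusted p = 0.888).

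Eif2ak4, the amino acid sensor GCN2, measured 4.59, 4.53, 4.46 and 4.40 in mutant arrays, each detected, and 4.38, 4.20 and 4.34 in control arrays, none of them well above background. All mutant arrays lay above all control arrays. The probe passed the filter through the mutant arrays alone, which had to be the higher ones, and the fit gave 0.20 (SE 0.11, limma adjusted p = 0.666). Against the detection floor of the control arrays, the bound for the mutant mean was 1.07-fold, or 0.10 on the log2 scale. This bound is under the SE and the filter selected for it, so no change is read from it. Eif2ak3 was not analysed here.

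The eIF2B complex recharges eIF2 with GTP and is the target that phosphorylated eIF2 blocks. Its 7 tested probes had a median difference of -0.00. The Eif2b1 probe ILMN_2600508 was the 1 factor probe that was lower at an unadjusted p under 0.05. It measured 4.63, 4.62, 4.60 and 4.90 in mutant arrays and 4.82, 4.94 and 5.08 in control arrays, so that mutant replicate 4 lay above control replicate 1. The difference was -0.28 (SE 0.11, limma adjusted p = 0.546), while the other Eif2b1 probe, ILMN_1215242, differed by 0.00 (SE 0.12). Eif2b2, Eif2b4 and the 3 probes of the catalytic subunit gene Eif2b5 lay between -0.10 and 0.10.

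The eIF3 complex is the large scaffold that holds the small subunit, eIF2 and eIF4G together. Of its 18 tested probes 13 were positive, with a median of 0.09, and 0 were called. Within the first chip 17 of the 18 were positive, and within the second 12. The mean over these probes was 7.62, 7.56, 7.38 and 7.47 in mutant arrays and 7.39, 7.45 and 7.40 in control arrays. Mutant replicates 1 and 2 were the highest, and mutant replicate 3 was at the level of the lowest control.

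Eif3s1, now Eif3j1, encodes the loosely bound eIF3j that helps place the mRNA channel. It had the smallest p of the factor probes and measured 5.36, 5.47, 5.05 and 5.02 in mutant arrays and 4.79, 5.06 and 4.87 in control arrays. Control replicate 2 lay above mutant replicates 3 and 4. The difference was 0.36 (SE 0.12, limma adjusted p = 0.458), with 0.49 within the first chip and 0.16 within the second.

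Eif3a encodes the largest subunit. Its probe ILMN_2690686 measured 7.19, 7.34, 6.90 and 6.45 in mutant arrays and 6.45, 6.80 and 6.62 in control arrays, and differed by 0.41 (SE 0.14, limma adjusted p = 0.479), the highest value among the factor probes. Within the first chip the difference was 0.64, within the second 0.06. The other Eif3a probe, ILMN_2735157, differed by -0.04, and the probe under the older symbol Eif3s10 by 0.09. Mutant replicate 4 was at the level of the lowest control on the first of these probes.

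Among the other eIF3 subunits, Eif3k differed by 0.24 (SE 0.12, limma adjusted p = 0.634), Eif3d, a cap-binding subunit, by 0.19, and Eif3f by 0.18. The 3 probes of Eif3i differed by 0.19, 0.18 and -0.04. Eif3s6, now Eif3e, differed by 0.17, Eif3s8, now Eif3c, by 0.09, and the 2 probes of Eif3g, 1 of them under Eif3s4, by 0.03 and 0.07. Eif3b, Eif3h and the probes of Eif3eip, now Eif3l, lay between -0.10 and 0.01. A second Eif3b probe was detected on 1 array and not tested. None of these passed the test.

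The cap-binding complex eIF4F and its inhibitors carry the closest tie to mTORC1. Eif4e measured 6.79, 6.99, 6.45 and 6.16 in mutant arrays and 6.26, 6.53 and 6.30 in control arrays. Mutant replicates 1 and 2 lay above all controls and mutant replicate 4 below them. The difference of 0.30 (SE 0.13, limma adjusted p = 0.586) was 0.49 within the first chip and 0.00 within the second.

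Eif4ebp1 measured 5.39, 4.90, 5.14 and 5.37 in mutant arrays and 5.09, 5.35 and 5.29 in control arrays. Eif4ebp2 measured 6.39, 6.61, 6.54 and 6.57 in mutant arrays and 6.64, 6.46 and 6.44 in control arrays. For both 4E-BP genes the groups overlapped. The differences were -0.06 (95% interval -0.33 to 0.22, limma adjusted p = 0.939) and 0.02 (95% interval -0.22 to 0.25, limma adjusted p = 0.984). Eif4ebp3 was detected on 0 arrays.

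The scaffold gene Eif4g1 measured 6.70, 6.79, 6.98 and 6.77 in mutant arrays and 7.01, 6.79 and 7.06 in control arrays, a difference of -0.17 (SE 0.11, limma adjusted p = 0.737). Eif4g2, whose product lacks the eIF4E-binding part of eIF4G, gave 0.12 and -0.04 on 2 probes. The helicase gene Eif4a1 gave 0.02 and 0.04 on 2 probes, and Eif4a2 gave 0.07. Eif4a2 had 10.32 in each control array because the probe had the same rank there and quantile normalisation gives each rank 1 value.

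Eif4a3, the helicase of the exon junction complex rather than of initiation, measured 7.31, 7.52, 7.49 and 7.09 in mutant arrays and 7.55, 7.59 and 7.54 in control arrays. All mutant arrays lay below all control arrays. The control arrays spanned little, at 7.56 ± 0.03 (SD, n = 3), and the mutant arrays more, at 7.35 ± 0.20 (SD, n = 4). The difference of -0.19 (SE 0.12, limma adjusted p = 0.709) did not pass. With all mutant arrays below the controls in 1 of 87 tested factor probes (1.15%), the share was under the 3.27% of all probes. All mutant arrays lay above the controls in 2 (2.30%, against 3.28%), Eif2ak4 and Eif5a2. Both passed the filter through the mutant arrays alone, so nothing is read from that count.

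The helicase cofactor genes Eif4b and Eif4h differed by 0.13 and -0.04. Eif4e3 gave 0.07, 0.18 and 0.11 on 3 probes, and the cap-binding repressor gene Eif4e2 gave 0.07, -0.16 and, under the symbol Eif4el3, -0.09. The probes of Eif4enif1, which carries eIF4E into the nucleus, gave 0.01 and 0.12. Eif4e1b, known from oocytes, was detected on 0 arrays by either probe.

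**Figure D4:**
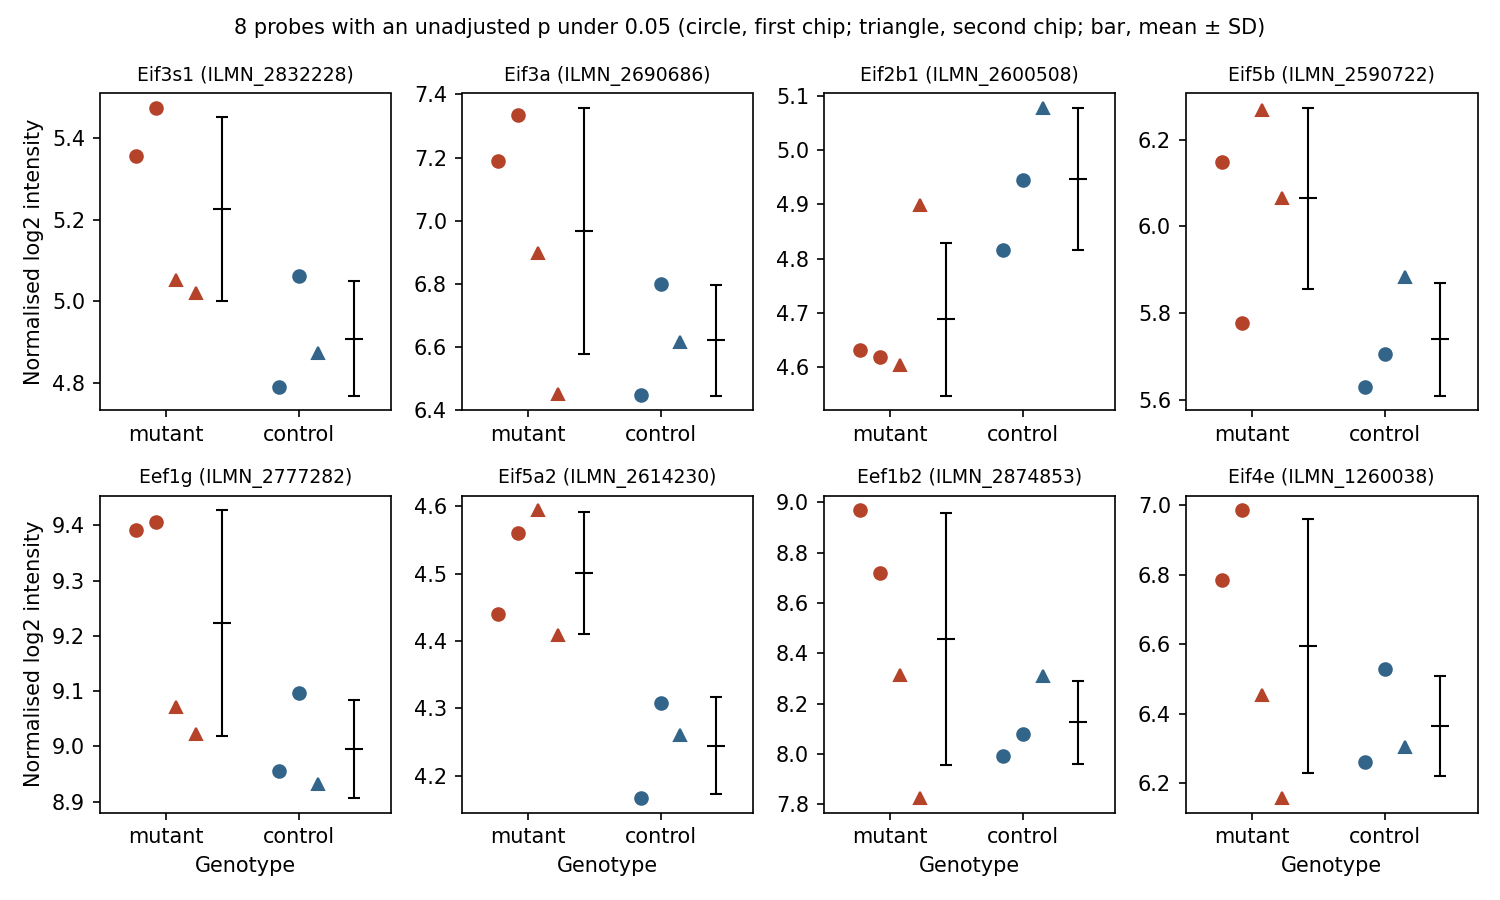
Normalised log2 intensity by array of the 8 factor probes with an unadjusted p under 0.05, none of which passed after adjustment; circles are arrays of the first chip, triangles of the second, and bars mean ± SD. For Eif3s1, Eif3a, Eef1g, Eef1b2 and Eif4e both mutant arrays of the first chip lie above all controls.

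The eIF5 group holds Eif5 and Eif5b, which act up to subunit joining, and Eif5a and Eif5a2, which are given after them. Eif5b, the GTPase that joins the large subunit, gave 0.29 (SE 0.12, limma adjusted p = 0.554) on the probe ILMN_2590722, which measured 6.15, 5.78, 6.27 and 6.07 in mutant arrays and 5.63, 5.70 and 5.88 in control arrays. Only mutant replicate 2 overlapped the controls, and both chips gave similar values, 0.30 and 0.28. A second Eif5b probe, ILMN_2744399, gave 0.04. Eif5, which makes eIF2 hydrolyse its GTP, gave 0.08, 0.15 and -0.04 on 3 probes.

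Eif5a encodes the hypusine-bearing factor that helps stalled ribosomes. Its probes gave -0.13 (SE 0.11, limma adjusted p = 0.793) and 0.00. Eif5a2, a close relative of Eif5a, measured 4.44, 4.56, 4.59 and 4.41 in mutant arrays, each detected, and 4.17, 4.31 and 4.26 in control arrays, none of them well above background. It too passed the filter through the mutant arrays alone. The fit gave 0.25 (SE 0.11, limma adjusted p = 0.585), with 0.26 within the first chip and 0.24 within the second. Against the detection floor of the control arrays, the bound for the mutant mean was 1.07-fold, or 0.10 on the log2 scale. As for Eif2ak4, the bound is under the SE and no change is read from it. Eif6, which keeps the ribosomal subunits apart, differed by -0.03 (SE 0.11, limma adjusted p = 0.965).

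The elongation factors deliver tRNAs to the ribosome (eEF1) and move it along the mRNA (eEF2). Eef1a1 encodes the main tRNA carrier. Its probe ILMN_2588052 measured 11.00, 10.83, 10.87 and 10.94 in mutant arrays and 10.94, 10.91 and 10.94 in control arrays, and its differences on the 3 probes were -0.02, 0.03 and 0.23. The third value belongs to the probe ILMN_1244894, with 8.61, 8.62, 8.11 and 7.82 in mutant arrays and 8.13, 8.23 and 8.05 in control arrays (SE 0.13, limma adjusted p = 0.665). That probe was high in mutant replicates 1 and 2 and low in mutant replicate 4.

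Eef1a2, the form of muscle and neurons, was detected on all 7 arrays by 1 of its 3 probes, at 6.40, 7.09, 6.73 and 7.13 in mutant arrays and 7.34, 6.32 and 6.66 in control arrays. Its other probes were detected on 0 and 1 arrays. The groups overlapped through their whole range (difference 0.05, 95% interval -0.36 to 0.47, limma adjusted p = 0.963). Of 6 skeletal muscle markers, Acta1, Ckm, Myh4 and Tnnt3 were detected on 0 arrays and 1 marker was detected on at least 3. Of 6 nerve and Schwann cell markers, Nefl and S100b were detected on 0 arrays and 4 markers were detected on at least 3. The mean of these 6 was 4.73 to 4.92 in mutant and 4.68 to 4.74 in control arrays. The source of the Eef1a2 signal was not tested.

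Eef1b2, a nucleotide exchange subunit for eEF1A, was the gene whose probes differed most. The probe ILMN_2874853 measured 8.97, 8.72, 8.31 and 7.82 in mutant arrays and 7.99, 8.08 and 8.31 in control arrays, a difference of 0.39 (SE 0.17, limma adjusted p = 0.585). It was 0.81 within the first chip and -0.24 within the second. The other probes, ILMN_1229042 and ILMN_2708644, gave -0.18 and -0.04.

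Eef1g, the scaffold subunit of the same exchange complex, measured 9.39, 9.41, 9.07 and 9.02 in mutant arrays and 8.96, 9.10 and 8.93 in control arrays. Control replicate 2 lay above mutant replicates 3 and 4, and the difference was 0.27 (SE 0.11, limma adjusted p = 0.556). Eef1d, the other exchange subunit, gave 0.09 on the probe ILMN_2624018 and -0.22 (SE 0.12, limma adjusted p = 0.644) on ILMN_3139168, while its other probes were detected on 1 and 2 arrays and not tested. Eef1e1, which sits in the tRNA synthetase complex, gave 0.03.

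Eef2, the translocase, gave 0.18, 0.05 and -0.04 on 3 probes. The first of them, ILMN_1239110, measured 9.02, 9.08, 8.75 and 8.95 in mutant arrays and 8.60, 9.05 and 8.74 in control arrays (SE 0.12, limma adjusted p = 0.738). Eef2k, the kinase that stops eEF2 and is itself held back through mTORC1, was detected on 2 of 4 mutant and 3 of 3 control arrays and differed by -0.11 (SE 0.12, limma adjusted p = 0.855).

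Probes of one gene often differed in sign. Of 20 genes with more than 1 tested probe, 13 had probes of both signs. The range between probes of a gene was 0.57 for Eef1b2, 0.45 for Eif3a, 0.32 for Eef1d and 0.29 for Eif2b1. The deposited data give no probe positions, so it was not tested whether these probes read different transcripts.

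**Figure D5:**
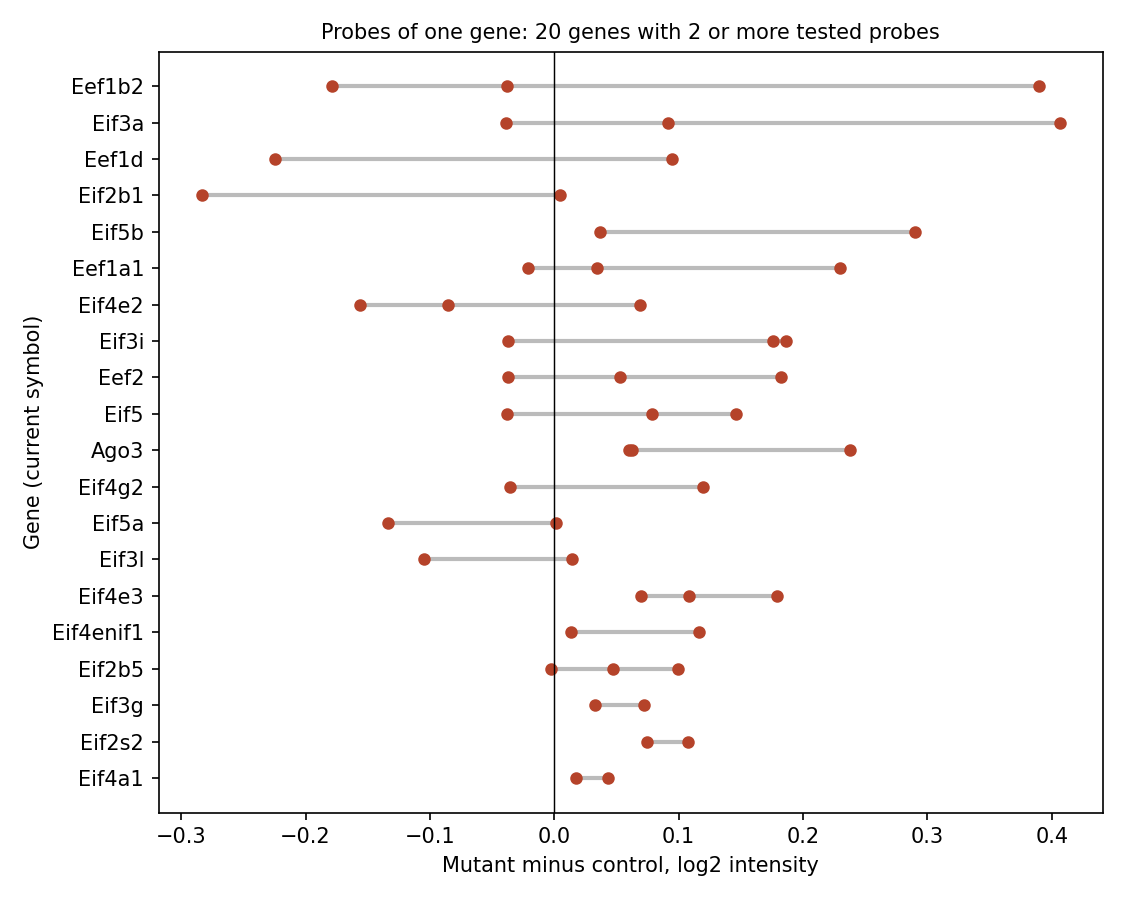
Difference between mutant and control arrays (log2 intensity) of each tested probe, for the 20 factor genes with more than 1 tested probe, ordered by the range between probes. Points are probes; the range is widest for Eef1b2, at 0.57.

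The Argonaute genes under the Eif2c symbols had 6 tested probes of 8. Ago1 and Ago2, by their older names Eif2c1 and Eif2c2, differed by -0.02 and 0.00. Of the 3 tested probes of Eif2c3, now Ago3, ILMN_1233354 was detected on all 7 arrays and gave 0.06. The others, ILMN_2642288 at 0.06 and ILMN_2870191 at 0.24 (SE 0.12, limma adjusted p = 0.634), were each detected on 1 of 3 control arrays and passed the filter through the mutant arrays, so their differences rest on controls mostly not above background. The tested probe of Eif2c4, now Ago4, gave 0.15. The untested probes of Eif2c3 and Eif2c4 were detected on 1 and 0 arrays. Leaving these symbols out, the median of the remaining 81 factor probes was 0.03, with 49 positive.

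Other genes of mTORC1 signalling, ribosome recycling, termination and mitochondrial translation did not pass either. Of the 37 genes listed, 34 were tested with 45 probes, of which limma called 0, against 0.0614% of all probes. The median difference was -0.03, with 19 probes positive (42.2%, against 50.1% of all probes) and 26 negative. By an unadjusted p under 0.05, 0 probes were higher (against 4.32% of all probes) and 1 was lower (2.22%, against 3.67%). That probe was of Rheb, the GTPase that activates mTORC1, with 8.29, 8.25, 8.44 and 9.11 in mutant arrays and 9.19, 8.83 and 9.17 in control arrays (difference -0.60, SE 0.15, limma adjusted p = 0.300). Mutant replicate 4 lay within the controls, and a second Rheb probe gave -0.20 (SE 0.11). The genes next in rank were Gbl, now the mTOR partner Mlst8, at 0.22 (SE 0.11), with other probes at -0.12 and 0.14, and Frap1, now Mtor, at 0.21 (SE 0.12), with a second probe at -0.07. The gene listed as 4932417H02Rik, now the mTORC1 scaffold Rptor, was detected on 3 mutant and 0 control arrays, so no fold is given for it. Mcts1, a recycling factor gene, gave -0.21 (SE 0.13) and Abce1, the ribosome-splitting ATPase, 0.18 (SE 0.12).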

How the data were processed

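Each sample gave 1 array. Per the file headers, the deposited probe intensity values are not normalized, and they come with a detection p-value against negative controls and a count of beads, each deposited per probe. The authors also deposited log2 values adjusted with ComBat, as the table's name says, with a p-value, a q-value and a fold score per probe in the deposited table. The bead standard error, a deposited signal column, was not used. The sources used here do not name the software behind these values.

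Intensities were background-corrected with limma 3.58.1 in R 4.3.3 (normexp, its negative controls inferred from detection p, offset 16), quantile normalised and taken to log2. The offset compresses differences of dim probes. Probes with a detection p under 0.05 on at least 3 arrays, 14666 of them, were tested with lmFit and eBayes on genotype and chip (4 residual and 15.4 prior degrees of freedom). Adjusted p-values are Benjamini-Hochberg over all of them, two-sided, with 0.05 as the threshold. Group means and SDs are without the chip term. Differences are mutant minus control. A probe's brightness depends on its sequence, so levels of different probes were not compared. The number of arrays limits the precision.

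For a probe detected on all mutant and no control arrays, the bound sets the mutant mean against the control arrays' lowest detected values. Named are called probes, the 8 of smallest p in each direction, the 5 brightest, a fixed list of core factors, the 4 genes whose probes differ most and probes detected on no array; other members are named to account for all. The members, lists and rules were chosen with earlier results of these data known. Alternatives changed the offset, background correction, scaling, detection filter, chip term, array weights, eBayes options, source values, probe rule and replicate block, or left out an array.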

Additional observations from a re-analysis of the deposited data

Results flagged for a closer look

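In 5 of the 87 tested factor probes, 1 of the 4 mutant arrays lay far from the other 3, with a gap to the nearest above 0.829 of the group's range; chance gives about 1 in 20 groups. Mutant replicate 3 was high for Eef1e1, at 5.70 against 5.44 to 5.45 in the other mutant arrays, and for Eif2c3 on the probe ILMN_2642288, at 4.71 against 4.43 to 4.45. Mutant replicate 4 was high for Eif2b1 on ILMN_2600508, at 4.90 against 4.60 to 4.63, and for Eif2b5 on ILMN_2715215, at 6.08 against 5.86 to 5.89. Mutant replicate 1 was low for Eif3a on ILMN_2735157, at 7.24 against 7.71 to 7.79. Groups of 3 control arrays were not examined in this way.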

How the results depend on the processing

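Limma called 0 factor probes under every alternative run, with 1 to 13 at an unadjusted p under 0.05 and 0.144 as the smallest adjusted p of any factor probe. The count of called probes over the whole array was less stable: 9 (5 higher, 4 lower), 9 with median scaling (9 higher, 0 lower), 0 with the offset of 50, without background correction, without the detection filter or in the series matrix values fitted without a chip term (6 with the chip term alone dropped), 1 on the first chip alone and 14 on the second chip alone. Leaving out single arrays gave 0 to 14, with 14 without control replicate 1, 0 without mutant replicate 1, mutant replicate 3 or control replicate 2, 1 without control replicate 3 and 2 without mutant replicate 4. The median factor difference of 0.0367 was 0.108 with median scaling (0.0563 over all probes), 0.0166 with 1 probe per symbol, 0.02 without background correction, 0.0216 in the series matrix values without a chip term, 0.0710 on the first chip, -0.00627 on the second and 0.0219 (without control replicate 2) to 0.0710 (without control replicate 3, where the second chip holds no control) with single arrays left out. Among 46 named probes, 71 of 866 values under alternatives changed sign, all but 1 of them at an unadjusted p of at least 0.05 on both sides. The exception was the Eef1b2 probe ILMN_2874853, at -0.241 on the second chip. The cause of these changes was not tested. With the replicate number as a block in place of the chip, 6 probes were called over the array and 0 factor probes (median 0.0328). Same-numbered samples lay on the same chip, and their deviations from the group means correlated at -0.0194, 0.155 and 0.153 for replicates 1 to 3. Control replicates 2 and 3 correlated best with the mutant of their own number and control replicate 1 with mutant replicate 4, so the numbers were not taken as pairs. Probes near background, such as Eif2ak4 and Eif5a2, have compressed differences.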
